A study of Bos taurus with 12 samples.

Results

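Genomic imprinting leaves a gene active on the copy inherited from one parent and silent on the other, by DNA methylation marks that the egg or the sperm sets and that the early embryo keeps while most other methylation is erased. Many imprinted genes act on fetal growth and on the placenta, several in opposite directions according to the parent whose copy is active. Because both sexes inherit one copy from each parent, an autosomal imprinted gene has the same copy number in female and male embryos. The 10 autosomal genes described here, NNAT, SNRPN, PEG3, PEG10, MEST, IGF2R, H19, PHLDA2, CDKN1C and GNAS, are well-known imprinted genes and were found by exact gene symbol among the 32637 genes of the count table. All 10 were listed, 9 had at least 1 count, and 7 had enough counts to be tested among 12802 genes.

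The libraries came from expanded bovine blastocysts made by in vitro maturation, fertilization and culture, from slaughterhouse ovaries and the frozen semen of a pair of bulls. The study collected them on different days of culture. The sample labels do not give the day of a pool, so embryo age may differ between pools and between the sexes. Each embryo was cut, so that the piece used for RNA held inner cell mass and trophectoderm, and its sex was read by PCR from the other piece. A replicate was a pool of a pair of cut embryos of one sex, with 6 female and 5 male pools, all untreated, and polyA RNA was copied at full length with the SMART-Seq HT PLUS kit. Such counts add up both parental copies, so the active allele was not measured, and in a pool of whole cells fewer cells of a type and less RNA per cell cannot be told apart.

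Counted reads ranged from 6664112 to 16162985 in female and from 9942952 to 21392764 in male libraries, and male replicate 5, the deepest, also had the fewest detected genes (14937). The labels were checked with sex-linked genes. XIST had 687 to 3590 counts in females and 9 to 54 in males, and 4 Y-linked genes had 1563 to 4645 counts together in males and 0 to 34 in females. The female libraries with the most Y-linked counts were replicates 1 (34) and 6 (32), and results are therefore also given without them. Trophectoderm markers summed to 7880 to 23200 CPM (counts divided by library size, with edgeR's TMM factors) in females and 9190 to 36100 in males, highest in male replicate 5. The inner cell mass markers summed to 562 to 981 CPM in females and 844 to 1080 in males. Of the marker genes of inner cell mass, trophectoderm, hypoblast and cumulus cells, 0 were called sex-biased by edgeR. PTGS2, of the trophectoderm list, and CYP19A1, of the cumulus list, had an unadjusted p under 0.05, and DESeq2 called PTGS2 higher in females.

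The comparison asked which imprinted genes differed in level between female and male embryos. SNRPN, which encodes the spliceosomal protein SmN, was the only one called sex-biased and was higher in males. NNAT, which encodes the membrane proteolipid neuronatin, had the largest fitted difference of the 7 tested genes but did not pass. A gene was called at an adjusted p under 0.1 and a fold change over 1.5 in edgeR's quasi-likelihood test. Of the 12802 genes tested, 0.414% were called higher in males and 1.5% higher in females, against 1 and 0 of the 7 tested imprinted genes. Among the 12172 autosomal genes tested, the fitting background for these members, the shares were 0.345% and 0.361%. The median log2 fold change of the 7 (positive when higher in males) was 0.23, that of all tested genes 0.005, and that of the autosomal ones 0.02. At an unadjusted p under 0.05 stood 4 of the 7, namely SNRPN, NNAT, PEG3 and IGF2R, beside 13.2% of all tested and 11.1% of autosomal genes. Since a pool is the replicate, the p-values measure the spread between pools.

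**Figure D1:**
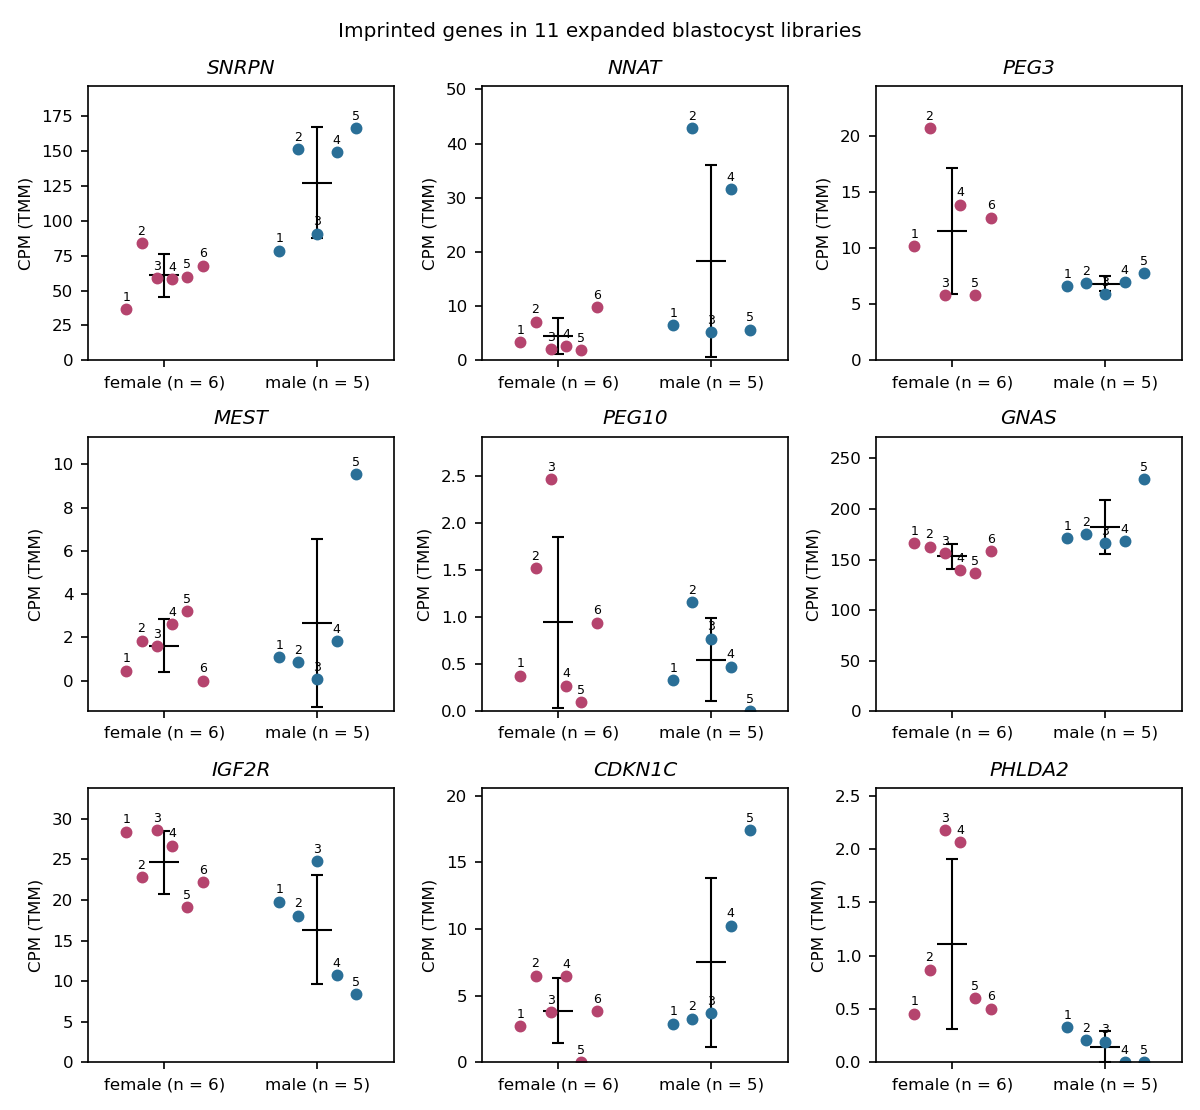
Level of the 9 detected imprinted genes in every library, as CPM scaled with TMM factors, with a linear axis per gene. Points are libraries with their replicate number, and bars are the mean and SD. SNRPN lay between 36.7 and 83.9 CPM in females and between 78.4 and 166 in males, and all PHLDA2 points of females were above those of males.

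Of the genes whose paternal copy is active in most mammals, SNRPN was the most abundant in CPM, which is not corrected for transcript length. It lies on chromosome 21 at 1937668 to 1961040 (ARS-UCD2.0), in the bovine counterpart of the Prader-Willi and Angelman region, and its product replaces the related SmB/B' proteins in the core of spliceosomal particles, mainly in neurons. In females SNRPN was between 36.7 and 83.9 CPM, with a median of 59.4. Male replicates 1 to 5 had 78.4, 151, 90.8, 149 and 166 CPM. Of the 5 male libraries, 4 were above the highest female (replicate 2), and the groups overlapped through male replicate 1 alone. The means were 60.9 ± 15.4 CPM across females (SD, n = 6) and 127 ± 39.6 CPM across males (SD, n = 5). Its log2 fold change was 1.0 ± 0.24 (SE), with an adjusted p of 0.0763 in edgeR's quasi-likelihood test. The two-sided exact permutation test of the mean CPM gave p = 0.00433, where 0.00216 is the smallest that 6 against 5 libraries allow. That test was run for each of the 9 members with counts, with no adjustment. For SNRPN it reuses the libraries of the edgeR fit, so it is not separate support.

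Libraries carry a number from 1 to 3 in their names, which was a block in the test. Within each number the mean log2 CPM of SNRPN was higher in males, by 0.97, 0.64 and 1.3 for numbers 1, 2 and 3, and number 2 holds 1 male library. The call was lost when most single libraries were left out. When each was left out in turn, the log2 fold change stayed between 0.86 and 1.21, but the adjusted p ranged from 0.0576 to 0.215, and the call was kept only without female replicate 2, male replicate 1 or male replicate 5. It was lost without female replicate 1 (adjusted p = 0.14), 3 (0.111), 4 (0.139), 5 (0.215) or 6 (0.208) and without male replicate 2 (0.206), 3 (0.171) or 4 (0.134). Without both female replicates 1 and 6 the log2 fold change was 0.79 ± 0.26 (SE) and the adjusted p 0.363 in edgeR. DESeq2 with the same block gave a log2 fold change of 1.01 and an adjusted p of 0.00633, in a fit that called 1.04% of 15693 genes higher in males and 3.14% higher in females, or 1.0% and 1.56% of the 14836 autosomal genes.

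SNRPB, the widely expressed paralog that encodes SmB/B', gives a reference inside each library that needs no scaling between libraries. SNRPN made up 12.7 ± 2.86% (SD, n = 6) of the counts on both genes in females and 17.8 ± 2.90% across males (SD, n = 5), a difference of 5.06 percentage points (two-sided exact permutation test, p = 0.013). The male shares were 14.7, 18.5, 14.9, 19.4 and 21.3% for replicates 1 to 5, and the female shares ran from 7.26% in replicate 1 to 15.6% in replicate 2. Female replicate 2 lay above male replicates 1 and 3, so the groups overlapped. Without female replicates 1 and 6 the difference was 3.69 points (exact permutation test, p = 0.0635). Reads that fit both paralogs may be counted unevenly, and how the counting treated them is not given in the sources used here.

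**Figure D2:**
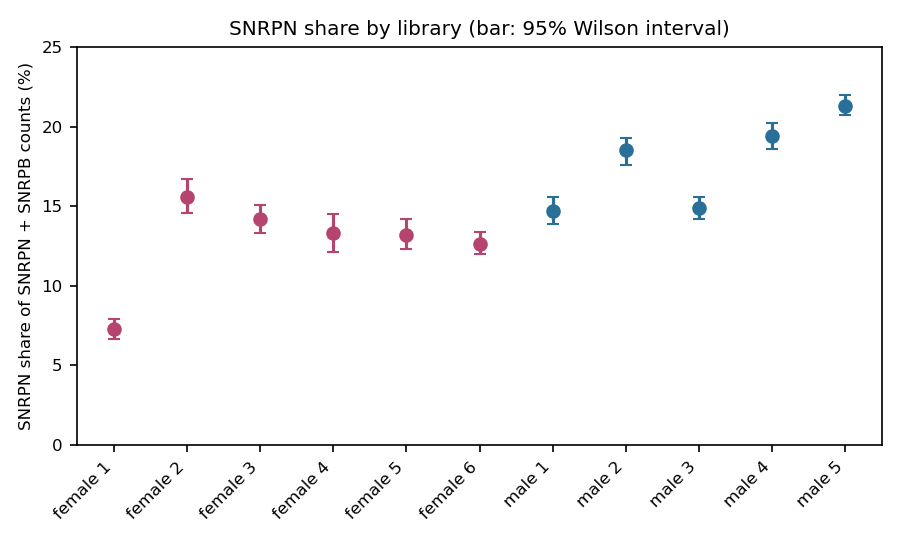
SNRPN counts as a percentage of SNRPN plus SNRPB counts in each of the 11 libraries, females left and males right, with the 95% Wilson interval that covers counting error only. Female replicate 1 was lowest at 7.26% and male replicate 5 highest at 21.3%.

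SNRPB itself was at 420 ± 49.7 CPM across females (SD, n = 6) and 575 ± 85.7 CPM across males (SD, n = 5), a log2 fold change of 0.42 ± 0.13 (SE) that was not called (edgeR, adjusted p = 0.189). All 7 genes of the Sm protein list, the ring that SmN or SmB/B' completes, were tested and 0 were called by edgeR or DESeq2. Of autosomal genes edgeR called 0.345% higher in males and 0.361% higher in females, so 0 of 7 is near those shares. The median log2 fold change of the 7 was 0.30, 6 of the 7 were positive, and 3 had an unadjusted p under 0.05 (SNRPB, SNRPD3 and SNRPF). SNRPD3, the most abundant of them in CPM, was at 530 ± 24.5 CPM across females (SD, n = 6) and 675 ± 81.2 CPM across males (SD, n = 5) (edgeR, adjusted p = 0.249). SNRPD1 was at 332 ± 44.4 CPM across females (SD, n = 6) and 403 ± 81.6 CPM across males (SD, n = 5) (edgeR, adjusted p = 0.473).

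No tested gene of SNRPN's imprinted domain was called. UBE3A, the ubiquitin ligase whose maternal copy is active in neurons, was at 117 ± 14.9 CPM across females (SD, n = 6) and 110 ± 15.0 CPM across males (SD, n = 5) (log2 fold change -0.07 ± 0.13, SE; edgeR, adjusted p = 0.872). NDN, the paternally expressed growth suppressor necdin, was at 21.4 ± 3.51 CPM (SD, n = 6) and 21.6 ± 12.6 CPM (SD, n = 5) (edgeR, adjusted p = 0.896). MKRN3, a paternally expressed ubiquitin ligase, and ATP10A, a phospholipid transporter, had log2 fold changes of -0.31 and -0.38 and adjusted p of 0.737 and 0.761 in edgeR. MAGEL2, NPAP1 (annotated on chromosome 8 in cattle) and SNURF, which shares its position with SNRPN at 1937689 to 1954983, had 0 counts in all libraries. With 0 counts on SNURF, no read was counted for both genes. How the counting treated reads that fit both SNURF and SNRPN is not given in the sources used here, so the value of SNRPN may hold or lack them. Of the 12801 other tested genes, the one whose log2 CPM was most like that of SNRPN over the 11 libraries was MRPL23 on chromosome 29, which encodes a mitochondrial ribosomal protein and lies near H19 (Pearson r = 0.938, Spearman's rho = 0.9, and r = 0.843 after the mean of each sex was removed). The next gene had r = 0.924. These points share library depth and sex, and MRPL23 was not called (log2 fold change 0.53 ± 0.17, SE; edgeR, adjusted p = 0.201).

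NNAT lies on chromosome 13 at 66465154 to 66467548, inside the span of BLCAP (66461376 to 66483945), and forms a small imprinted domain of its own. The study listed NNAT among its male-biased autosomal genes and reported similar RNA-seq and PCR trends across the genes it examined. NNAT is the member for which the study designed an RT-qPCR assay, with this primer pair, shown because it marks the part of the transcript that the assay reads (5′ to 3′, positions not computed).
NNAT forward: tggtacattttccgcgtgct
NNAT reverse: tgaacacctcacttctcgca
In females NNAT was between 1.90 and 9.82 CPM, with a median of 3.02. Male replicates 1 to 5 had 6.45, 42.9, 5.21, 31.5 and 5.67 CPM. Male replicates 2 and 4 stood above every other library, while the other 3 males lay within the female range.

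The mean of NNAT was 4.49 ± 3.25 CPM across females (SD, n = 6) and 18.4 ± 17.7 CPM across males (SD, n = 5), with a log2 fold change of 1.76 ± 0.60 (SE) and an adjusted p of 0.223 (edgeR's quasi-likelihood test). The two-sided exact permutation test gave p = 0.0563. Within library numbers 1, 2 and 3 the male mean was higher by 1.72, 1.12 and 1.58 on the log2 scale. The difference did pass in other fits. DESeq2 with the library number called it (log2 fold change 1.77, adjusted p = 0.034), and so did edgeR on every gene with a count (1.76, adjusted p = 3.15e-05), a fit that called 0.876% of 23857 genes higher in males and 2.24% higher in females. Of 22062 autosomal genes it called 0.875% and 1.26%. Without male replicate 2 the edgeR log2 fold change was 1.16 (adjusted p = 0.484), without male replicate 4 it was 1.32 (adjusted p = 0.423), and without male replicate 5 it was 2.03 (adjusted p = 0.0996). Without female replicates 1 and 6 it was 2.01 (edgeR, adjusted p = 0.44). BLCAP, the host gene, had a log2 fold change of 0.17 ± 0.21 (SE; edgeR, adjusted p = 0.787).

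**Figure D3:**
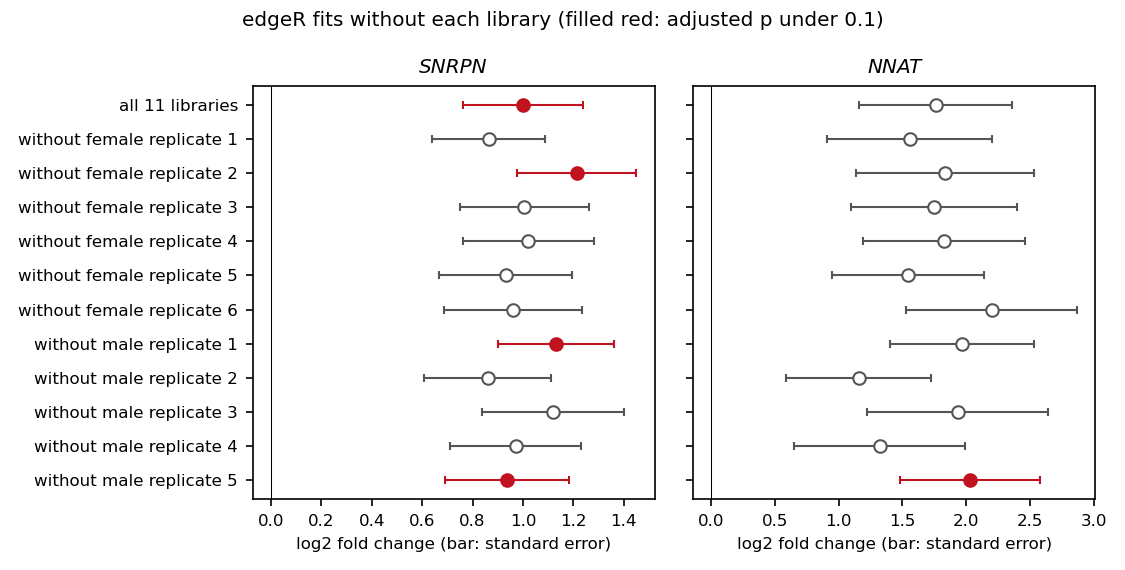
Log2 fold change (male over female, bar: SE) of SNRPN and NNAT in edgeR's quasi-likelihood fit to all 11 libraries and without each library in turn, with adjusted p under 0.1 in filled red. SNRPN stayed between 0.86 and 1.21 and passed in 3 of the 11 reduced fits, and NNAT fell to 1.16 without male replicate 2.

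PEG3, a zinc finger protein that in mice acts on growth and maternal behaviour, lies on chromosome 18 at 64099192 to 64122748. It was between 5.80 and 20.7 CPM in females, with a median of 11.5, while male replicates 1 to 5 had 6.62, 6.87, 5.92, 6.99 and 7.75 CPM. The male values lay close together inside the female range, whose upper part was held by replicates 1, 2, 4 and 6. The means were 11.5 ± 5.64 CPM (SD, n = 6) and 6.83 ± 0.661 CPM (SD, n = 5), with a log2 fold change of -0.75 ± 0.33 (SE; edgeR, adjusted p = 0.361). Within library numbers the differences were -1.09, -0.59 and -0.22 on the log2 scale.

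MEST, a predicted hydrolase that in mice supports growth of the fetus and placenta, lies on chromosome 4 at 94250838 to 94263783, where COPG2 overlaps its end. Its counts were few. It had 0 counts in female replicate 6, where 3 counts would be 0.189 CPM, and a female median of 1.72 and highest value of 3.20 CPM. Male replicates 1 to 5 had 1.08, 0.845, 0.0644, 1.83 and 9.55 CPM, so that male replicate 5 stood alone and the other males lay within the female range. The log2 fold change was 0.09 ± 1.25 (SE; edgeR, adjusted p = 0.988), and its sign turned when male replicate 5 was left out (-0.78, adjusted p = 0.768). Within library numbers 1, 2 and 3 the differences were 0.00, -3.31 and 2.59 on the log2 scale. The last 2 include libraries with 0 or 1 count, so their size depends on the prior count (-4.3 and 3.6 with a prior of 0.5). In male replicate 5 the summed trophectoderm markers were highest (36100 CPM) and the summed hypoblast markers lowest (208 CPM). Their part in the MEST value of that library was not tested.

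PEG10, a gene derived from a retrotransposon and needed for the mouse placenta, lies on chromosome 4 at 12063954 to 12076659 and held 71 counts in all females and 33 in all males, too few for the fit. The highest level was 2.47 CPM in female replicate 3, and male replicate 5 had 0 counts, where 3 counts would be 0.145 CPM. The groups overlapped, with means of 0.949 ± 0.910 CPM across females (SD, n = 6) and 0.549 ± 0.442 CPM across males (SD, n = 5) (two-sided exact permutation test, p = 0.42).

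Of the genes whose maternal copy is active in most mammals, GNAS was the most abundant in CPM. It encodes the stimulatory G protein alpha subunit and, from other promoters, transcripts of either parental origin, which gene counts do not separate. It lies on chromosome 13 at 57465317 to 57532620. In females GNAS was between 137 and 166 CPM, with a median of 157, and male replicates 1 to 5 had 171, 175, 166, 168 and 230 CPM. Male replicate 3, the lowest male, lay just under female replicate 1, the highest female, and all other males were above every female. The means were 153 ± 12.3 CPM (SD, n = 6) and 182 ± 26.8 CPM (SD, n = 5). The log2 fold change of 0.23 ± 0.14 (SE) was under the fold limit and not called (edgeR, adjusted p = 0.514), while the two-sided exact permutation test of the mean CPM, one of 9 such tests with no adjustment, gave p = 0.00433. Within library numbers 1, 2 and 3 the male mean was higher by 0.08, 0.17 and 0.42 on the log2 scale. Without male replicate 5 the log2 fold change was 0.14 (edgeR, adjusted p = 0.599).

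IGF2R, the receptor that takes the growth factor IGF2 to the lysosome and thereby limits growth, lies on chromosome 9 at 96197493 to 96300019. In females it was between 19.1 and 28.6 CPM, with a median of 24.7, and male replicates 1 to 5 had 19.8, 18.1, 24.8, 10.7 and 8.43 CPM. Male replicates 2, 4 and 5 were below every female, and male replicates 1 and 3 lay within the female range. The means were 24.6 ± 3.85 CPM (SD, n = 6) and 16.4 ± 6.71 CPM (SD, n = 5), with a log2 fold change of -0.61 ± 0.20 (SE) that was not called (edgeR, adjusted p = 0.218), and the exact permutation test gave p = 0.0303. Within library numbers 1, 2 and 3 the differences of the means (male minus female) were -0.43, -0.16 and -1.10 on the log2 scale. AIRN, the antisense transcript from the IGF2R locus (96219714 to 96220605), had 35 counts in all. Without strand in the counting, which is not stated, reads of the gene and its antisense partner cannot be told apart.

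PHLDA2, which restrains growth of the placenta, lies on chromosome 29 at 48689532 to 48690588. Female replicates 1 to 6 had 6, 8, 30, 15, 6 and 8 counts, and male replicates 1 to 5 had 4, 2, 3, 0 and 0. As CPM, females were between 0.457 and 2.18, with a median of 0.734, and males between 0 and 0.331, so that every female was above every male. Among the 23857 genes with at least 1 count, 1.2% were separated in that direction, and 0.544% of the 22062 autosomal ones. Male replicates 2 to 5 were at or under the floor of 3 counts, which covers counting error only, as amplified reads are not independent molecules. The means were 1.11 ± 0.796 CPM (SD, n = 6) and 0.147 ± 0.144 CPM (SD, n = 5). The two-sided exact permutation test gave p = 0.0108 with all libraries. Female replicates 1 and 6 had the lowest female levels (0.457 and 0.504 CPM). Without them the two-sided exact permutation test gave p = 0.00794, the smallest p that the remaining libraries allow. That p follows from the separation already seen, so it adds no support. DESeq2 called it higher in females (adjusted p = 0.036), and edgeR on every gene with a count did not (adjusted p = 0.134).

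CDKN1C, the cell cycle inhibitor p57, lies 37907 bases from PHLDA2, at 48728495 to 48730501 on chromosome 29. In females it was between 0 and 6.51 CPM, with a median of 3.81 and 0 counts in replicate 5, where 3 counts would be 0.300 CPM. Male replicates 1 to 5 had 2.90, 3.28, 3.67, 10.2 and 17.4 CPM. Male replicates 4 and 5 were above every female, and the other 3 males lay within the female range. The log2 fold change was 0.69 ± 0.87 (SE; edgeR, adjusted p = 0.788), and it was 0.06 without female replicate 5 and 0.40 without male replicate 5. Within library numbers 1, 2 and 3 the differences were -0.44, -0.42 and 4.09 on the log2 scale. The last includes female replicate 5 with its 0 counts, so its size depends on the prior count (5.1 with a prior of 0.5).

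H19, a maternally expressed noncoding RNA of the fetus and placenta on chromosome 29 at 49510998 to 49513370, had 0 counts in all 11 libraries. In single libraries 3 counts would be 0.145 to 0.413 CPM, and 0 of 141129547 counted reads allows up to 0.0213 CPM before scaling, so H19 was not detectable at this depth. IGF2, its paternally expressed partner, had 4 counts in all.

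**Figure D4:**
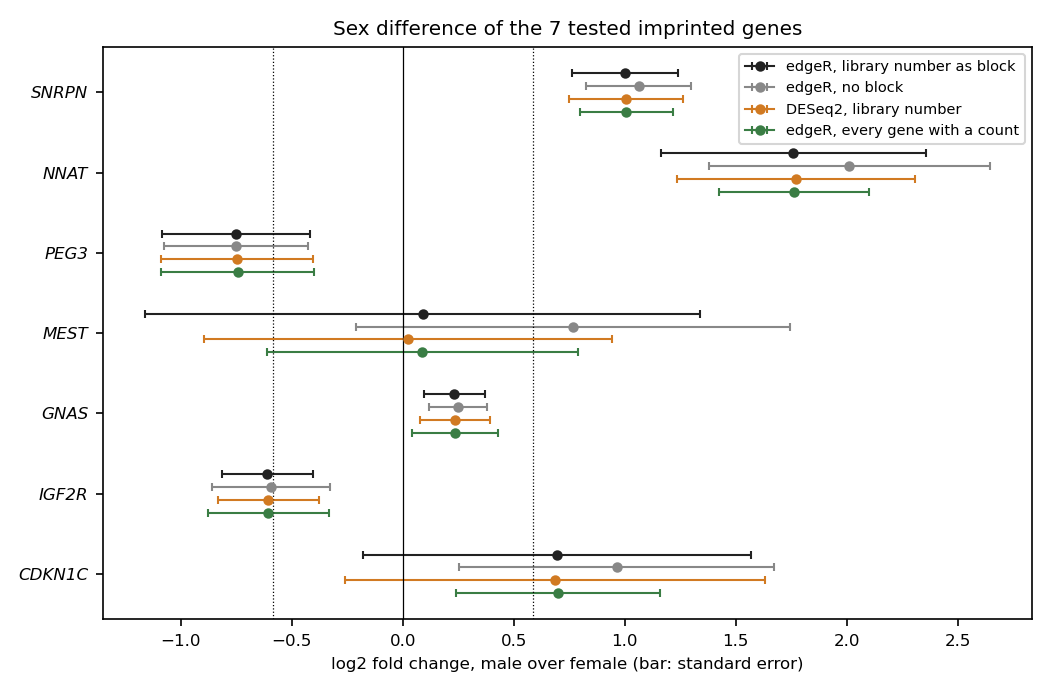
Log2 fold change (male over female, bar: SE) of the 7 tested imprinted genes in 4 fits: edgeR with the library number as block, edgeR without it, DESeq2 with that block, and edgeR without the count filter. Dotted lines mark a fold change of 1.5. SNRPN and NNAT lay above the upper line in each fit, MEST ran from 0.02 to 0.77, and the other genes kept their sign.

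The members differed in how much they varied between pools of one sex. Against tested genes within 0.5 log2 units of their level, the SD of log2 CPM within a sex was at the 98.2 percentile for MEST (SD 1.81), the 97.8 percentile for CDKN1C (1.69) and the 95.4 percentile for NNAT (1.20). The SDs of MEST and CDKN1C include libraries with 0 or 1 count, whose log2 CPM depends on the prior count. SNRPN (SD 0.438, percentile 74.2), IGF2R (0.46, 60.2) and PEG3 (0.543, 57.0) were nearer the middle, and GNAS was among the steadiest (0.157, percentile 3.31). These are descriptions over 11 libraries, and the summed trophectoderm markers also spread widely among them (7880 to 36100 CPM); their part in the spread was not tested.

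Among 80 other genes reported as imprinted in cattle, human or mouse, or lying in the domains of the members, 72 were matched by symbol, 8 of these had 0 counts, 39 were tested and 0 were called by edgeR. Of all autosomal genes tested, edgeR called 0.345% higher in males and 0.361% higher in females, so 0 of 39 is near those shares. Of the 39, 19 were positive and 20 negative, the median log2 fold change was -0.07, and 8 had an unadjusted p under 0.05. DESeq2 with the library number called 1 of them, PPP1R9A, a neuronal actin-binding protein of the PEG10 domain that was singled out after its values were seen. It was at 3.44 ± 2.08 CPM across females (SD, n = 6) and 0.895 ± 0.489 CPM across males (SD, n = 5) (edgeR, adjusted p = 0.252). The most abundant in CPM were ATP5F1E, an ATP synthase subunit, with 252 ± 13.1 CPM across females (SD, n = 6) and 324 ± 84.5 CPM across males (SD, n = 5), CD81, a tetraspanin, with 256 ± 72.9 and 315 ± 58.8 CPM, and COMMD1, a copper homeostasis factor, with 161 ± 24.7 and 145 ± 39.6 CPM.

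Factors that keep imprints through the methylation loss of the early embryo, or that act on DNA methylation, showed no called difference. Of 16 listed, 15 were matched and 10 tested, with a median log2 fold change of -0.02, 0 at an unadjusted p under 0.05 and 0 called by edgeR or DESeq2. The autosomal shares that edgeR called were 0.345% higher in males and 0.361% higher in females, so 0 of 10 is near them. DPPA3, which protects maternal methylation in the zygote, was the most abundant in CPM at 325 ± 102 CPM across females (SD, n = 6) and 339 ± 155 CPM across males (SD, n = 5). TRIM28, the corepressor that holds methylation at imprinted control regions, was at 87.8 ± 15.4 and 97.1 ± 13.3 CPM in the same order. SMCHD1, a chromatin protein of the inactive X and of some imprinted clusters, was at 93.1 ± 26.3 and 70.4 ± 34.4 CPM.

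**Figure D5:**
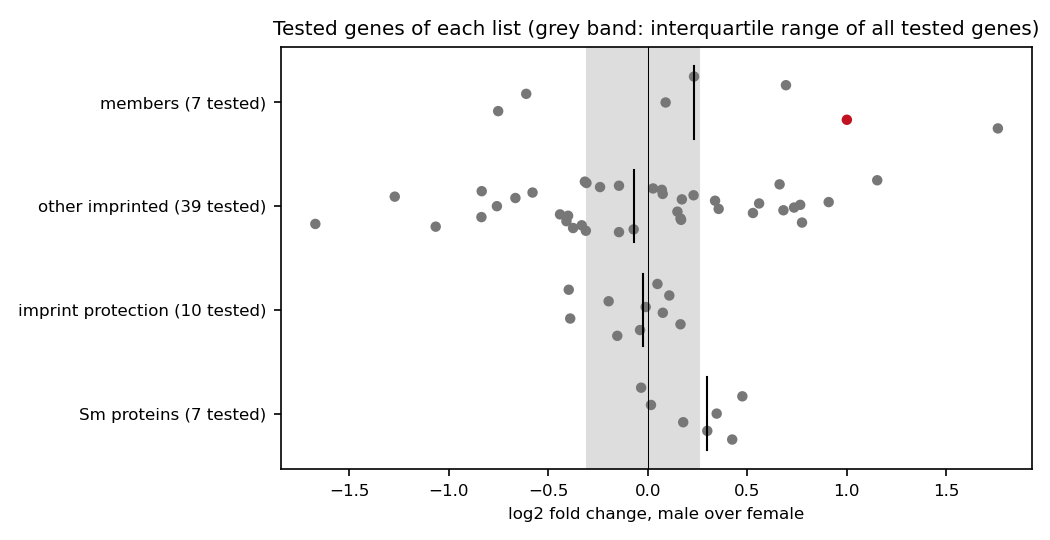
Log2 fold changes (male over female) of the tested genes of 4 lists in edgeR, 1 point per gene, with the called gene in red, the list's median as a black line and the interquartile range of all tested genes as a grey band. SNRPN, the red point at 1.0, is the single called gene, and the medians are 0.23, -0.07, -0.02 and 0.30 from top to bottom.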

How the data were processed

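Read trimming used fastp 0.20.0, alignment to the ARS-UCD assembly STAR 2.7.10b, and gene counting featureCounts, and the authors deposited the raw counts as whole numbers. Strand setting and the treatment of multi-mapping reads are not given in the sources used here. A 4-cell Iso-seq sample was not used here. Symbols were joined to RefSeq ARS-UCD2.0 (30271 of 32637 matched) for position.

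Sex and replicate came from the sample labels. Counts of all 11 libraries were tested in R 4.3.3 with edgeR 4.0.16 (filterByExpr by sex, TMM, quasi-likelihood test, library number as block, Benjamini-Hochberg adjustment over 12802 genes, calls at FDR under 0.1 and fold change over 1.5). The library number, the first in the library name, stood in for the collection week that the study used as a covariate and the labels do not give. DESeq2 with both numbers of the library name called 837 genes, the same total as the DEGs that the study reported. Whether the genes are the same was not compared. A prior count of 2 entered log2 CPM. The common biological coefficient of variation was 0.403. Single values were compared by two-sided exact permutation over every division of the libraries into 6 and 5 (python 3.11.15, scipy 1.17.1). On simulated data edgeR recovered 77% of the changes of log2 size 2 and 30% of those of log2 size 1. Of its calls there, 7.76% were false. A gene that was not called may therefore still differ between the sexes.

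Named were all 10 members, the domain genes of a called member, list genes that edgeR called, the 3 most abundant genes of each list, and the gene most like a called member. The inner cell mass list was NANOG, SOX2, POU5F1, CRIPTO, LIN28A, KLF17 and SPIC, and the trophectoderm list KRT8, LGALS3, KRT18, PTGS2, DAB2, GATA3, TFAP2C, GATA2, TFAP2A and CDX2. Hypoblast markers (GATA6, PDGFRA, COL4A1, HNF4A, GATA4, SOX17 and FOXA2) summed to 228 to 621 CPM in females and 208 to 467 in males. The cumulus cell list (FSHR, CYP19A1, HAS2, TNFAIP6, INHA, AMH and FOXL2) summed to 7.19 to 32.7 and 5.38 to 29.5 CPM, with 7 counts of INHA, 7 of AMH and 1 of FOXL2 in all libraries. Members and lists were chosen with earlier results of these data known. Alternatives were fits with other blocks, DESeq2 1.42.0, other scalings and count filters, an FDR of 0.05, glmTreat, and fits without each library.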

Additional observations from a re-analysis of the deposited data

Results flagged for a closer look

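Single libraries far from the others of their sex were found in 3 of the 20 groups examined by Dixon's criterion, which chance flags in about 1 of 20 groups. MEST in male replicate 5 was at 9.55 CPM, where the next male had 1.83. GNAS in the same library was at 230 CPM, where the next male had 175. The SNRPN share of SNRPN plus SNRPB counts in female replicate 1 was 7.26%, where the next female had 12.6%.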

How the results depend on the processing

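Of the 10 imprinted genes, 1 was called higher in males (SNRPN). With DESeq2 (library number, sex alone or both numbers of the library name as terms) and with edgeR on every gene with a count, 2 were (SNRPN and NNAT), and at an FDR of 0.05, with glmTreat, or without both female replicates 1 and 6 (chosen after seeing the data), 0 were. Without single libraries the number ran from 0 to 2. Higher in females, 0 became 1 in DESeq2 with the library number or sex alone (PHLDA2) and 2 with both numbers (PHLDA2, and IGF2R at -0.63). Of the 72 matched other imprinted genes, 0 became 1, 3 and 2 in the 3 DESeq2 fits and 3 in edgeR on every gene with a count. The latter fit called 0.876% of 23857 genes higher in males and 2.24% higher in females. DESeq2 with the library number called 1.04% and 3.14% of 15693 genes in the same order. Calls over all genes, in either direction, went from 245 to 655, 739 and 837 in those DESeq2 fits. In edgeR on every gene with a count they numbered 743. Shares by direction were not computed for DESeq2 with sex alone or both numbers, or for the title's replicate number as block. The member and list counts of those fits therefore have no background share. The log2 fold change of MEST turned to -0.11 in DESeq2 with both numbers, to -1.13 without female replicates 1 and 6, and ranged from -0.78 to 0.88 without single libraries. Without female replicates 1 and 6 the difference in SNRPN share was 3.69 points. The signs of the 6 other tested members were the same in all 21 alternatives. The causes were not tested.

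The fit with no replicate block gave SNRPN 1.06 (edgeR, adjusted p = 0.0456) and 1 call. A replicate block by the title's replicate number gave 2 calls (SNRPN and NNAT, the latter 1.99 with an adjusted p of 0.0848 in edgeR) and MEST -0.36. Deviations of female-male pairs correlated at -0.111 to 0.351 (median 0.00045) for 10 pairs of one library number. For 20 pairs of different numbers they correlated at -0.297 to 0.245 (median -0.0508), and for 5 pairs of one title number at -0.111 to 0.351 (median 0.0283). The numbers were therefore not taken to pair the samples. The library number stayed a block in the main test, and whether it marks a batch is not known.

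Calls over all genes were 245, against 132 with the title's number, 655, 739 and 837 in the DESeq2 fits, 743 on every gene with a count, 125 at an FDR of 0.05, 62 with glmTreat and 95 (without male replicate 3) to 364 (without male replicate 5) without single libraries. The few counts of PEG10, MEST and PHLDA2 limit what these depths can show.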
